A study of Mus musculus with 10 samples.

Results

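Fads2, Fads3, Acly, Hsd17b12, Lpin1 and Dgat1 encode enzymes that build or modify fatty acids and glycerolipids. They were taken from an array study of mouse liver as every probe set annotated to the 6 named genes, which gave 7 probe sets of the 11868 tested, and 6 genes of the 5928 measured. Fads2 and Fads3 were chosen by their measured differences between the transgenic pools, which showed opposite preferences for the SREBP-1a and SREBP-2 transgenes. For Fads3 this held for its brighter probe set alone. The other 4 genes were chosen to set beside them. For that reason the values of these genes in the transgenic comparisons are given as a description, without a test. The comparison of Scap-/- with its own wild type was not used in the choice, and there the test is given.

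Sterol regulatory element-binding proteins (SREBPs) are transcription factors that lie at first in the endoplasmic reticulum membrane. Their escort protein SCAP carries them to the Golgi for cleavage when sterols are scarce. In liver, SREBP-1a can activate both fatty acid and cholesterol synthesis genes, while SREBP-2 acts mainly on cholesterol synthesis genes. Front-end desaturases such as FADS2 introduce double bonds into dietary polyunsaturated fatty acids, and their genes lie in a cluster with other family members.

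RNA came from whole livers of male mice in 5 groups, each a pool of 5 animals hybridised to 2 arrays (20 μg of pooled RNA in all). TgSREBP-1a and TgSREBP-2 mice overexpressed the active nuclear form of human SREBP-1a or SREBP-2. They were compared with littermate wild types, called SREBP wild type here. All 3 of these groups were 12 to 16 weeks old and were kept for 2 weeks on food rich in protein and poor in carbohydrate, to raise expression of the transgenes. The promoter of the transgenes is not given in the sources used here. Scap-/- mice carried MX1-Cre, whose recombinase was induced with 4 intraperitoneal injections of polyinosinic-polycytidylic acid to remove SCAP from liver, and the corresponding wild types, called Scap wild type here, received the injections too. Both of these groups were 10 to 12 weeks old and ate Teklad chow, and livers were taken 14 days after the last injection. Strain, and whether the Scap wild types carried Cre, are not given in the sources used here.

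Levels are log2 probe set signals, so a difference of 1 is a 2-fold change. The duplicates share a pool, so errors and p-values cover the spread between hybridisations and not between mice. A probe set is called changed when limma's Benjamini-Hochberg adjusted p over the 11868 probe sets is under 0.05 and the change is at least 1.5-fold. The median level over the tested probe sets was 4.74, with quartiles at 3.54 and 6.12, and a level compares pools for a single probe set and not transcripts of different genes. Duplicates correlated at 0.992 to 0.995 over the tested probe sets, which is across genes within a pool. The 3 prime minus 5 prime difference ran from 0.53 to 0.81 for the Gapdh control and from 0.80 to 1.10 for the beta-actin control. Scap itself, the Srebf genes, Fads1 and Fasn had 0 tested probe sets, so the deletion could not be checked at its own gene. Of 10 hepatocyte marker genes 1 was measured, Serpina1a, with a dim signal of 3.22 to 3.71, so the liver label could be checked only poorly. In bulk RNA, fewer cells of a type and less RNA per cell cannot be told apart.

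Fads2 encodes the desaturase that starts the conversion of linoleic and alpha-linolenic acid to longer polyunsaturated fatty acids. Its level was highest with SREBP-1a, intermediate with SREBP-2 and lowest without SCAP. The Scap groups also differ from the SREBP groups in diet, age and injections, which cannot be told apart in an order across all 5 groups. Fads3 encodes a family member that acts on sphingoid bases. With its brighter probe set, it was higher with SREBP-2 than in any other group, and with SREBP-1a its arrays overlapped with the wild type arrays. Acly, Hsd17b12, Lpin1 and Dgat1 differed by less than 1.5-fold in each of the 4 comparisons. Of these, Acly and Lpin1 had mean levels of 3.23 and 4.30, below the median of 4.74 over the tested probe sets. There are no detection calls, so for these dim probe sets a lack of change and a lack of detection cannot be told apart.

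The 250 bases upstream of the annotated start of Fads2 and of Fads3 are printed. By the brighter Fads3 probe set, these neighbouring genes differed in which transgenic pool they read highest in. The dimmer Fads3 probe set, 168721_r_at, read higher in TgSREBP-1a than in TgSREBP-2, as Fads2 did. Both windows are RefSeq sequences of build GRCm38.p6, written 5′ to 3′ on the gene's own strand, with motif matches on either strand in capitals. Fads2 lies on the minus strand at chr19:10101504-10101753 (GC content 64.8%) and Fads3 on the plus strand at chr19:10041298-10041547 (GC content 74.4%). The Fads3 window lies inside the annotated Fads3 gene, whose record begins further upstream.
Fads2: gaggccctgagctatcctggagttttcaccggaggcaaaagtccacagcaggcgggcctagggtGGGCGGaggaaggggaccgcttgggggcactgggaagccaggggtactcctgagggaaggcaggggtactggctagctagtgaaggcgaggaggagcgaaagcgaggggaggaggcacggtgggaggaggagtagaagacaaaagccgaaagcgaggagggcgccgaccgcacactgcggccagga
Fads3: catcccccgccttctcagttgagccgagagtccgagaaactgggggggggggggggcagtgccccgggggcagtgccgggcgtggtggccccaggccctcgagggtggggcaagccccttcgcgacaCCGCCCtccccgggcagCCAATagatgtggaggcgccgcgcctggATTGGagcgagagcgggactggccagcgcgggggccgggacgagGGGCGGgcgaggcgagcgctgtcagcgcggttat
The motifs searched on both strands were a sterol regulatory element, with the letters TCACNCCAC, an E-box, a CCAAT box and a GC box. Of all 32851 promoter windows of this length, 1.05% held the sterol element and 6.02% held the E-box, which was spelled CACGTG in the search. The CCAAT box, spelled by its name, was held by 33.8% of the windows. The GC box was held by 32.7% of them and was spelled GGGCGG in the search. In Fads2 the only match was a GC box 186 bases before the start. In Fads3 there were GC boxes at 123 and 34 bases and CCAAT matches, on opposite strands, at 106 and 78 bases before the start. The capitals in the printed windows mark these matches.

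Acly, whose window lies on chromosome 11, had 4 GC box matches, at 117, 88, 76 and 27 bases before the start. Hsd17b12, on chromosome 2, had CCAAT matches at 174 and 134 bases and a GC box at 200 bases before the start. Lpin1, on chromosome 12, had no match to any of the 4 motifs. Of the 6 genes 5 had a window, and Dgat1 did not. None of the 12 matches overlapped another, and 0 of them were sterol elements or E-boxes, which says only that these letters are not in these windows.

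**Figure D1:**
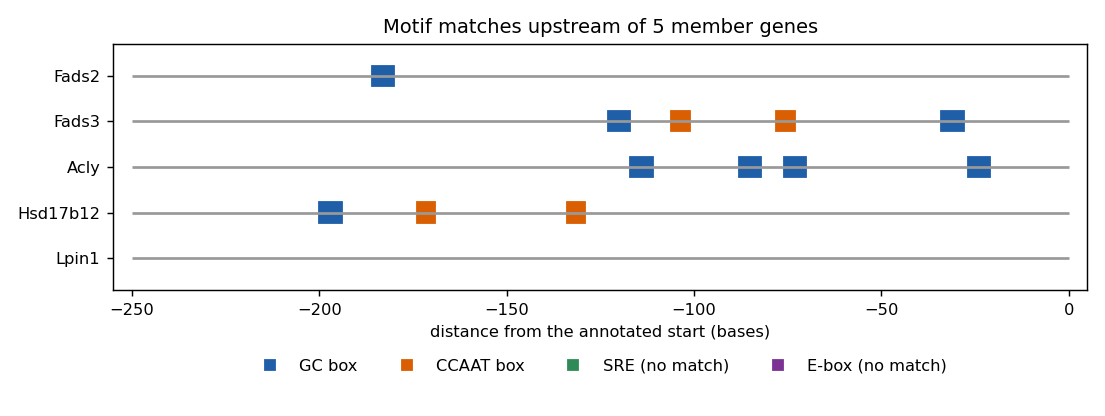
Position of motif matches in the 250 bases upstream of the annotated start of 5 genes, with distance to the start in bases on the horizontal axis and 1 row per gene; symbols mark the motif. Acly shows 4 GC box matches, Fads3 shows 2 GC boxes and 2 CCAAT matches, Fads2 shows 1 GC box and Lpin1 shows none.

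Fads2 was measured by probe set 167328_s_at, whose suffix marks a probe set that may match more than 1 transcript. In TgSREBP-1a its level was 11.91 and 11.75 on the 2 arrays, in TgSREBP-2 it was 10.62 and 10.11, and in the SREBP wild type it was 9.57 and 8.80. In the Scap pair it was 9.74 and 9.42 in the wild type, and 8.66 and 8.12 in Scap-/-. The arrays of TgSREBP-1a lay above those of TgSREBP-2, and both lay above those of each wild type, while the arrays of Scap-/- lay below each of the other 8. The only neighbours in this order whose arrays overlapped were the 2 wild types, with means of 9.58 ± 0.22 (SD, n = 2) and 9.18 ± 0.54 (SD, n = 2).

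The Fads2 level was higher by 2.64 on the log2 scale in TgSREBP-1a than in the SREBP wild type (SE 0.25, 6.25-fold). In TgSREBP-2 it was higher by 1.18 than in the same wild type (2.26-fold). These 2 comparisons share the wild type arrays. Set against each other directly, TgSREBP-1a was 1.47 above TgSREBP-2 (2.76-fold). By absolute size Fads2 ranked 7th, 12th and 13th among the 11868 probe sets in these comparisons, which is a description, since such differences chose the gene.

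In Scap-/- the Fads2 level differed from the Scap wild type by -1.19 on the log2 scale (SE 0.25, 95% confidence interval -1.74 to -0.63), a 2.27-fold lower level. It ranked 9th by absolute size among all tested probe sets, and both arrays of Scap-/- lay below both of the wild type. It was not called, with a limma adjusted p of 0.373 and an unadjusted p of 0.000601. Replicate 1 read higher than replicate 2 in all 5 pools, by 0.16 to 0.77. The 18S rRNA control moved the other way, differing by -2.23 to -0.13 between replicates 1 and 2. With the 18S signal as a covariate the Fads2 difference was -1.08 (SE 0.149, limma adjusted p = 0.0184), which is a call. Apart from the fits that left out 1 array each, 8 alternative fits gave a value for Fads2, this one included. Of these 2 gave a call and 6 did not. Over the leave-one-array fits, the difference ran from -1.45 to -0.92 and the limma adjusted p from 0.124 to 0.860. As a reference for the same comparison, Nsdhl, a cholesterol synthesis enzyme gene, was lower in Scap-/- by a log2 difference of -2.47 (limma adjusted p = 0.00623).

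Fads3 had 2 probe sets that did not behave alike. With 167028_at the level was 5.55 and 5.59 in TgSREBP-2, 4.20 and 4.47 in TgSREBP-1a, and 4.46 and 4.10 in the SREBP wild type. In the Scap pair it was 4.67 and 4.58 in Scap-/- and 4.45 and 4.36 in the wild type. Both TgSREBP-2 arrays were higher than the other 8 arrays, and the TgSREBP-1a arrays overlapped with those of both wild types. The Scap-/- arrays were just above the Scap wild type arrays.

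The level of 167028_at was higher by 1.29 on the log2 scale in TgSREBP-2 than in the SREBP wild type (SE 0.13, 2.44-fold), and the difference for TgSREBP-1a was 0.05. Without each array in turn the latter ran from -0.12 to 0.23. TgSREBP-1a minus TgSREBP-2 was -1.24 (2.35-fold lower in TgSREBP-1a). In Scap-/- the difference was 0.22 (95% confidence interval -0.07 to 0.50), and it was not called (limma adjusted p = 0.999).

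The second Fads3 probe set, 168721_r_at, is dimmer, and its suffix marks a set designed under relaxed rules. Its level was 3.50 and 3.62 in TgSREBP-2, 3.75 and 3.77 in TgSREBP-1a, 3.69 and 3.73 in the SREBP wild type, 3.70 and 3.58 in the Scap wild type, and 3.65 and 3.79 in Scap-/-. All 10 arrays lay between 3.50 and 3.79. TgSREBP-2 minus SREBP wild type was -0.15 (SE 0.098), opposite in sign to the brighter probe set, and TgSREBP-1a minus TgSREBP-2 was 0.20. So the opposite preference of Fads2 and Fads3 rests on 1 of the 2 Fads3 probe sets. In Scap-/- the difference was 0.07 (limma adjusted p = 0.999).

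**Figure D2:**
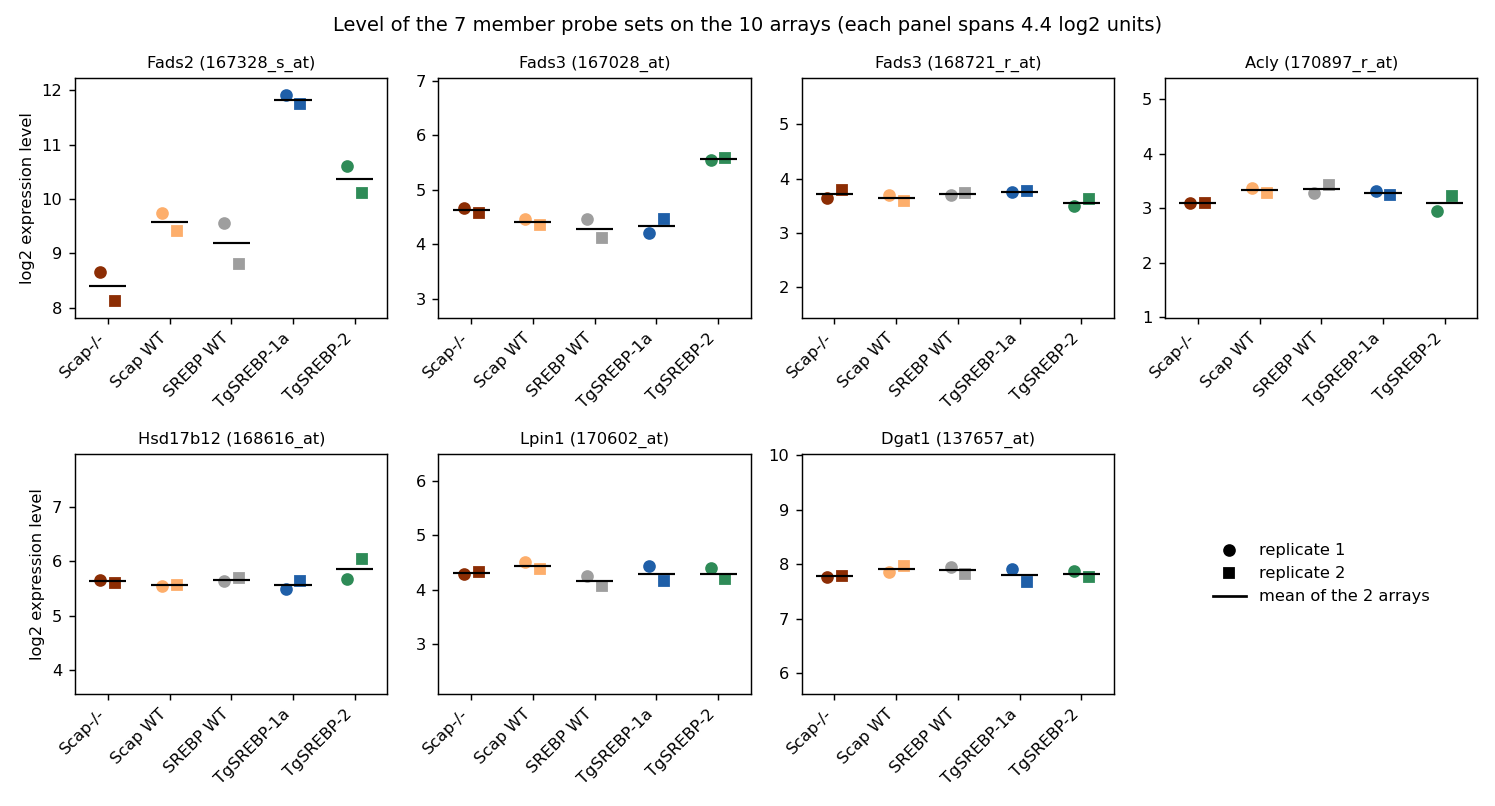
Log2 level of the 7 probe sets on each of the 10 arrays, with 1 panel per probe set, the 5 pools on the horizontal axis, points for arrays and a bar for the mean of the 2. Fads2 runs from 8.12 in Scap-/- to 11.91 in TgSREBP-1a, and Fads3 167028_at stands at 5.55 and 5.59 in TgSREBP-2 and at 4.67 or below elsewhere.

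Acly encodes ATP citrate lyase, which makes cytosolic acetyl-CoA for fatty acid and sterol synthesis. Its probe set, 170897_r_at, is dim. The levels were 3.31 and 3.24 in TgSREBP-1a, 2.95 and 3.23 in TgSREBP-2, 3.27 and 3.42 in the SREBP wild type, 3.38 and 3.28 in the Scap wild type, and 3.10 and 3.10 in Scap-/-. The Scap-/- arrays and the TgSREBP-2 arrays lay below the arrays of their own wild type. The difference was -0.23 in Scap-/- (SE 0.111, limma adjusted p = 0.999), -0.07 in TgSREBP-1a and -0.25 in TgSREBP-2.

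Hsd17b12 encodes the 3-ketoacyl-CoA reductase of the fatty acid elongation cycle. With probe set 168616_at its levels were 5.49 and 5.64 in TgSREBP-1a, 5.68 and 6.04 in TgSREBP-2, 5.64 and 5.69 in the SREBP wild type, 5.55 and 5.56 in the Scap wild type, and 5.66 and 5.61 in Scap-/-. The highest array was 1 of the 2 of TgSREBP-2, and the other overlapped with the SREBP wild type arrays, while both Scap-/- arrays lay just above those of the Scap wild type. TgSREBP-1a minus TgSREBP-2 was -0.29 (SE 0.119), and in Scap-/- the difference was 0.08 (limma adjusted p = 0.999).

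Lpin1 encodes lipin 1, a phosphatidate phosphatase that forms diacylglycerol. With probe set 170602_at its levels were 4.43 and 4.16 in TgSREBP-1a, 4.41 and 4.19 in TgSREBP-2, 4.26 and 4.08 in the SREBP wild type, 4.51 and 4.38 in the Scap wild type, and 4.30 and 4.33 in Scap-/-. The arrays of the 3 SREBP groups overlapped, and both Scap-/- arrays lay below the Scap wild type arrays. The differences were 0.12 in TgSREBP-1a, 0.13 in TgSREBP-2 and -0.13 in Scap-/- (SE 0.122, limma adjusted p = 0.999).

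Dgat1 encodes a diacylglycerol acyltransferase, which completes triglyceride synthesis. With probe set 137657_at its levels were 7.91 and 7.68 in TgSREBP-1a, 7.88 and 7.76 in TgSREBP-2, 7.95 and 7.82 in the SREBP wild type, 7.86 and 7.96 in the Scap wild type, and 7.77 and 7.78 in Scap-/-. The 10 arrays spanned 7.68 to 7.96, and the 3 SREBP groups overlapped. The differences were -0.09 in TgSREBP-1a, -0.06 in TgSREBP-2 and -0.13 in Scap-/- (SE 0.107, 95% confidence interval -0.37 to 0.10, limma adjusted p = 0.999).

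Over the 7 probe sets, 0 were called in Scap-/- by limma, where 0.0843% of all tested probe sets were called, and 1 had an unadjusted p under 0.05, beside 3.8% of all. In that comparison 2 probe sets were higher and 4 lower with no overlap of arrays, against 14.8% higher and 14.9% lower among all tested probe sets. Apart from Fads2 these differences lay between -0.23 and 0.22. In TgSREBP-1a 2 were higher and 1 lower without overlap, beside 15.2% and 24.2% of all probe sets. In TgSREBP-2 the counts were 2 higher and 2 lower beside 16.6% and 18.5% of all probe sets, and between the transgenes 3 higher and 2 lower in TgSREBP-1a beside 15.5% and 21.5%. The 7 probe sets had median differences of -0.13, 0.05, 0.13 and -0.00 in these 4 comparisons, and all tested probe sets had medians of 0.00, -0.03, -0.01 and -0.02.

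**Figure D3:**
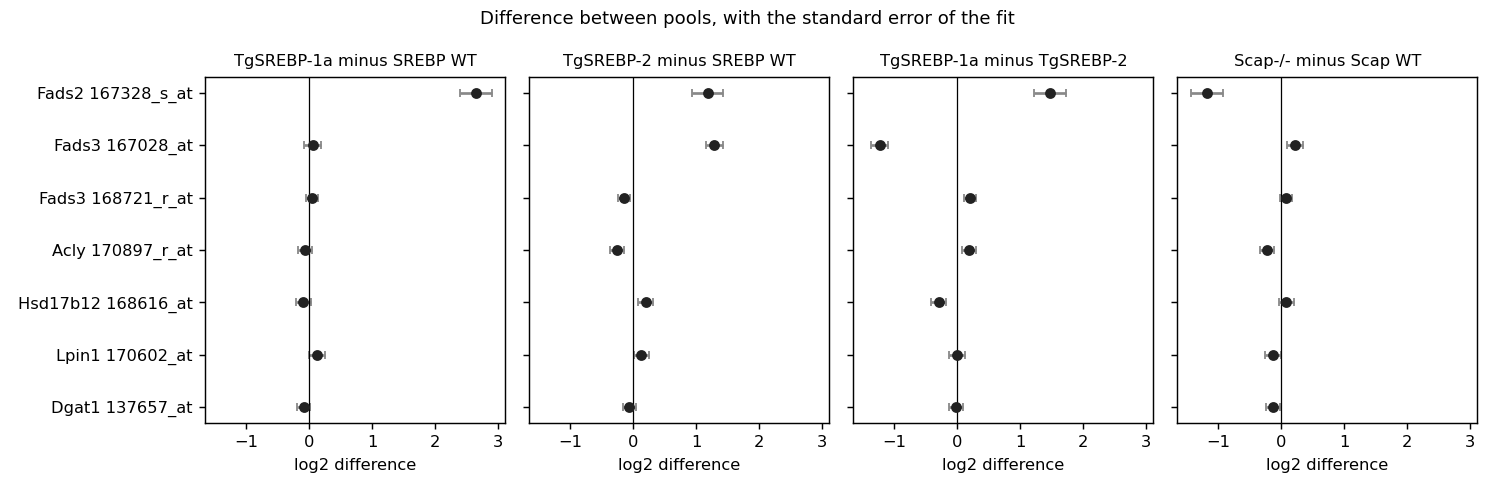
Log2 difference of each of the 7 probe sets in the 4 comparisons, with points for the differences and bars for the standard error of the fit. The panels show TgSREBP-1a and TgSREBP-2 each minus SREBP wild type, then TgSREBP-1a minus TgSREBP-2, then Scap-/- minus Scap wild type. In this order Fads2 stands at 2.64, 1.18, 1.47 and -1.19 and Fads3 167028_at at 0.05, 1.29, -1.24 and 0.22. The other 5 probe sets lie between -0.29 and 0.20.

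Differences of at least 1.5-fold were found for Fads2 alone in TgSREBP-1a, beside 1.76% of all tested probe sets. In TgSREBP-2 they were found for Fads2 and Fads3 167028_at, beside 0.624%, and between the transgenes for the same 2 probe sets, beside 1.06%. In Scap-/- Fads2 alone passed this size, beside 0.27%.

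Beyond the 6 genes, 30 of 148 listed genes of fatty acid, glycerolipid and phospholipid synthesis were measured. In TgSREBP-1a 2 of the 30 rose, 0 fell and 28 were not called, where 1.04% of all tested probe sets were called and 0.683% were called higher. Both stood in the list of desaturation and its electron donors, of which 3 genes were measured. Their median difference was 1.06 beside -0.03 over all tested probe sets. The other 7 lists had 1 fatty acid synthesis and citrate gene, 1 NADPH supply gene and 5 elongation genes measured. They also had 4 activation and binding genes, 3 glycerolipid genes, 10 phospholipid genes and 3 regulators measured. With the brightest probe set of each gene, limma called 0 of these, though a dimmer probe set of Lpin3, given below, was called. At an unadjusted p under 0.05 there were 4 of the 30, the 2 called genes included, beside 9.4% of all.

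Among the elongation genes the largest difference in TgSREBP-1a was that of Hacd2, a dehydratase of the elongation cycle, at 0.45 (limma adjusted p = 0.373), and in Scap-/- it was also Hacd2, at 0.32. Among the phospholipid genes it was the ethanolamine kinase gene Etnk1 at 0.34 in TgSREBP-1a, Lpcat4 at 0.25 in TgSREBP-2 and Pcyt2 at -0.37 in Scap-/- (limma adjusted p = 0.880). Among the regulators it was Rxra, a nuclear receptor gene, at -0.20 in TgSREBP-1a and -0.47 in Scap-/- (limma adjusted p = 0.999), and Mlx at -0.15 in TgSREBP-2. In TgSREBP-2 Hacd4 led the elongation genes at 0.27, and Acsm5 the activation and binding genes at 0.32. Acsm5 also led its list in Scap-/- at 0.24, and Acot8 did so in TgSREBP-1a at -0.15. Pdhb and Mthfd1, each the only measured gene of its list, differed by 0.16 and 0.01 in Scap-/-, by 0.03 and 0.10 in TgSREBP-1a and by -0.00 and 0.03 in TgSREBP-2. Between the transgenes the largest of each list were Hacd2 (0.43), Etnk1 (0.42), Acsm5 (-0.32), Mlx (0.17), Plpp3 (-0.12), Mthfd1 (0.07) and Pdhb (0.03).

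Scd3, a stearoyl-CoA desaturase gene, had levels of 5.18 and 5.64 in TgSREBP-1a, 5.07 and 4.81 in TgSREBP-2, 4.34 and 4.36 in the SREBP wild type, 4.50 and 4.28 in the Scap wild type and 3.91 and 4.18 in Scap-/-. Both TgSREBP-1a arrays were above the others. The rise in TgSREBP-1a was 1.06 (SE 0.157, 2.08-fold, limma adjusted p = 0.00669). Its probe set 138407_f_at carries the suffix for sequence families, so signal from related Scd genes cannot be told apart. The limma adjusted p was 0.0596 without SREBP wild type replicate 2 and 0.0746 without TgSREBP-1a replicate 2.

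Cyb5b, a cytochrome b5 of the outer mitochondrial membrane, had levels of 7.95 and 7.67 in TgSREBP-1a, 7.43 and 6.49 in TgSREBP-2, 6.44 and 5.97 in the SREBP wild type, 7.46 and 7.20 in the Scap wild type and 6.62 and 5.85 in Scap-/-. The TgSREBP-1a arrays were above all others, and the Scap-/- arrays were below the Scap wild type arrays. The rise in TgSREBP-1a was 1.61 (SE 0.298, 3.06-fold, limma adjusted p = 0.0249). These values are from 168386_f_at, which also carries the suffix for sequence families, so signal from related sequences cannot be told apart. Without SREBP wild type replicate 1 or 2 the limma adjusted p was 0.0515 or 0.251, and without TgSREBP-1a replicate 1 or 2 it was 0.264 or 0.113. The second Cyb5b probe set, 168535_i_at, is dim, with a mean level of 3.10 over the 10 arrays, and differed by 0.26 in TgSREBP-1a.

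In the other 3 comparisons limma called 0 of the 30 listed genes, where 0.118% of all probe sets were called in TgSREBP-2 and 0.514% between the transgenes. At an unadjusted p under 0.05 there were 3 in Scap-/-, 5 in TgSREBP-2 and 4 between the transgenes, beside 3.8%, 6.34% and 7.74% of all. In Scap-/- Cyb5b differed by -1.10 (limma adjusted p = 0.999) and Scd3 by -0.35. In TgSREBP-2 the values were 0.76 (limma adjusted p = 0.752) and 0.58 (limma adjusted p = 0.401). TgSREBP-1a minus TgSREBP-2 was 0.85 for Cyb5b (limma adjusted p = 0.442) and 0.47 for Scd3 (limma adjusted p = 0.392), so a difference between the transgenes was not called for either.

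Lpin3, a phosphatidate phosphatase gene related to Lpin1, had probe sets of opposite sign in TgSREBP-1a. The brighter one, 166143_f_at, differed by -0.55 (limma adjusted p = 0.0521), the largest difference of the listed glycerolipid genes by their brightest probe sets. The other, 166116_at, differed by 0.84 (limma adjusted p = 0.019), which is a call. In TgSREBP-2 they differed by -0.53 and 0.41 (limma adjusted p = 0.237 and 0.712), and in Scap-/- by 0.25 and 0.14. The direction for Lpin3 thus depends on the probe set read.

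**Figure D4:**
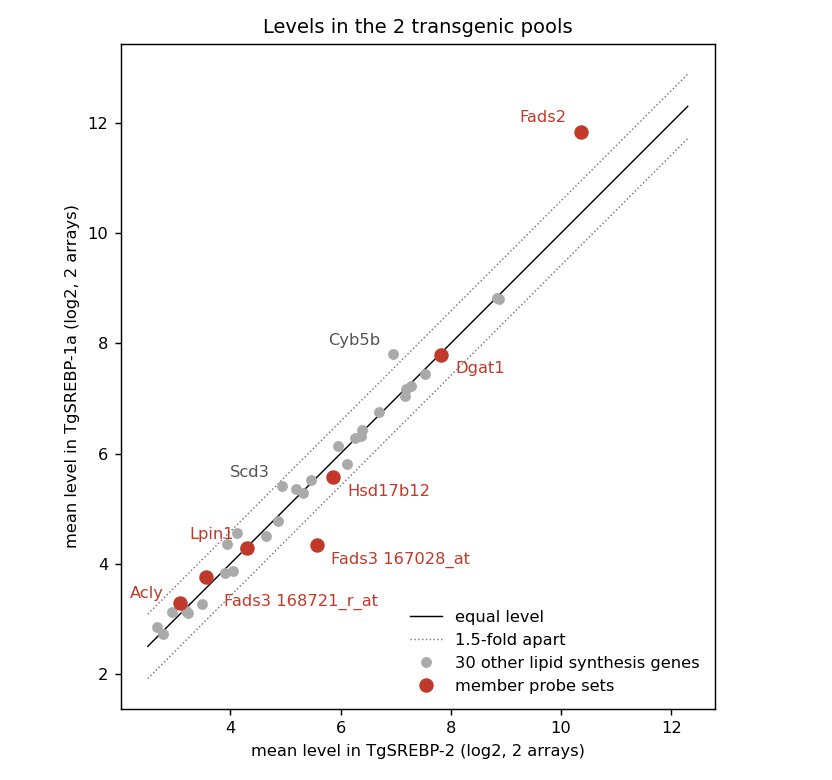
Mean log2 level in TgSREBP-1a against mean log2 level in TgSREBP-2 for the 7 probe sets in red and 30 other lipid synthesis genes in grey; the solid line marks equal levels and the dotted lines 1.5-fold. Fads2 lies above the upper line at 11.83 and 10.36, and Fads3 167028_at below the lower line at 4.33 and 5.57.

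Fads3 and Fads2 are adjacent in RefSeq's order on chromosome 19, and Fads1 follows. Of the 16 genes within 8 places on either side, 6 were measured with 11 probe sets, and limma called 0 of these in any of the 4 comparisons. At an unadjusted p under 0.05 there were 10 of these 44 tests (22.7%), beside 6.82% of the tests of all probe sets. They were 4 for Fth1, 3 for Best1, 2 for Asrgl1 and 1 for Tmem258, and these tests share arrays and, for Fth1, the gene. Their differences lay between -0.29 and 0.61, with a lowest adjusted p of 0.136. The highest was Fth1, the ferritin heavy chain, in TgSREBP-1a.

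The probe sets whose levels followed Fads2 most closely over the 10 arrays were sought among 89 candidates whose pool means spanned at least 2-fold. They were Cisd1 (Pearson's r = 0.936), Ipmk (0.929), Scd3 (0.926), Nipal1 (0.921) and Mblac2 (0.913). The mean level of Cisd1, a mitochondrial iron-sulphur protein gene, ran from 6.58 in Scap-/- to 8.11 in TgSREBP-1a. For Fads3 167028_at they were Smlr1 (0.880), Cuzd1 (0.812), Slc3a1 (0.749), Lbp (0.737) and Abcg8 (0.670), and each of these had its highest mean in TgSREBP-2. Genes picked for their correlation with a probe set tend to peak in the same pool, so a shared peak is no separate support. For Fads3 168721_r_at they were Sult1e1 (0.579), Gramd3 (0.556), Abca5 (0.513), Anxa5 (0.480) and Fyb2 (0.471). Fads2 itself correlated with the Fads3 probe sets at 0.0913 and -0.00438. The 10 arrays are duplicates of 5 pools, so these coefficients describe pools.

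**Figure D5:**
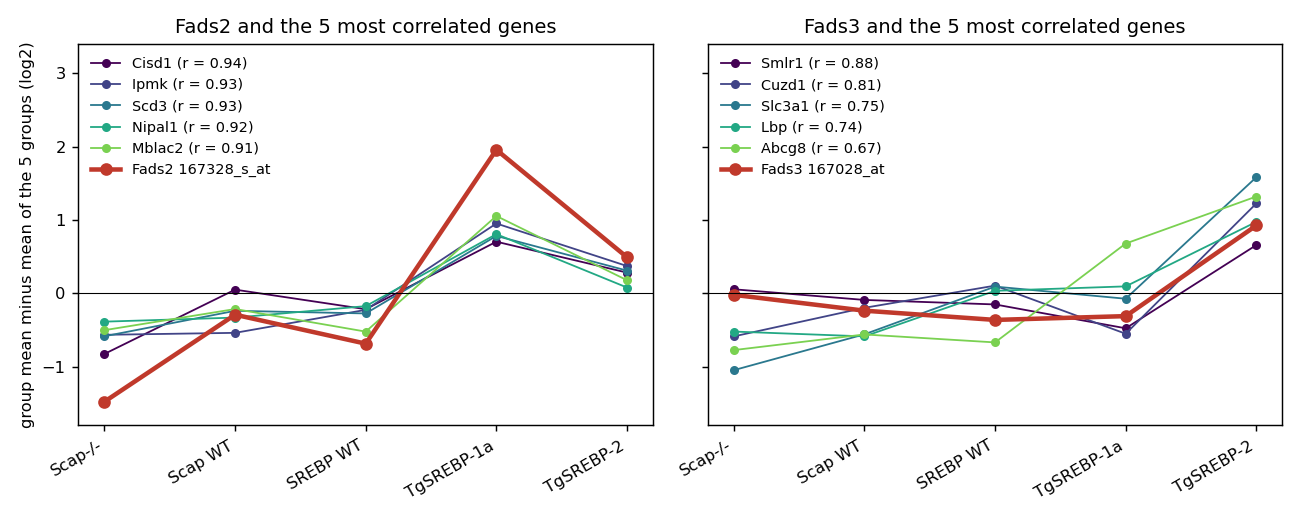
Log2 level by pool of Fads2 and of Fads3 167028_at with the 5 genes most like each, each as the pool mean minus the mean of the 5 pools. The Fads2 group is highest in TgSREBP-1a, and the Fads3 group is highest in TgSREBP-2, which follows from picking the genes by correlation.

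Markers of other cell types moved between the same pools. Both measured macrophage and Kupffer cell genes of 10 listed were called higher in TgSREBP-1a, beside 0.683% of all tested probe sets. Vsig4 rose by 1.14 (limma adjusted p = 0.0185) and Laptm5 by 1.05 (limma adjusted p = 0.00538). In TgSREBP-2 they differed by 0.74 and 0.54 and were not called (limma adjusted p = 0.406 and 0.417). Their summed log2 level was 18.01 to 18.16 in TgSREBP-1a, 16.96 to 17.38 in TgSREBP-2, 15.45 to 16.35 in the SREBP wild type, 16.34 to 17.20 in Scap-/- and 16.57 to 16.93 in the Scap wild type. This sum was in the same order as Fads2 in the 3 SREBP groups and overlapped in the Scap pair, where Fads2 did not. Its part in the Fads2 result was not tested.

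Of 19 pancreatic acinar genes 7 were measured. In TgSREBP-2 limma called Gp2 (1.08) and Cuzd1 (1.12) higher, beside 0.11% of all tested probe sets called higher. In TgSREBP-1a it called Cpa1 (-4.39), Gp2 (-1.48) and Cuzd1 (-0.66) lower, beside 0.354% of all called lower. In Scap-/- it called Cpa1 (-2.86) and Gp2 (-1.32) lower, beside 0.0421%. The rest of the 7 were not called, and the signs were mixed, with Pnliprp1 at -0.21 in TgSREBP-2 and Amy2a5 at 0.19 in Scap-/-. The summed level of the 7 was 37.9 to 39.2 in TgSREBP-2, 34.2 to 36.2 in the SREBP wild type, 27.9 to 28.2 in TgSREBP-1a, 32.5 to 33.2 in the Scap wild type and 27.7 to 28.5 in Scap-/-. This sum moved mostly with Cpa1, Gp2 and Cuzd1, which differed by -5.18, -2.56 and -1.78 between the transgenes. Fads3 167028_at was highest where this sum was highest. In the pools where the sum was lowest, its levels were 4.20 and 4.47 in TgSREBP-1a and 4.67 and 4.58 in Scap-/-. The levels in their wild types were 4.46 and 4.10 for SREBP and 4.45 and 4.36 for Scap. Cuzd1 was also among the genes most correlated with Fads3 167028_at (Pearson's r = 0.812). The part of acinar RNA in the Fads3 result was not tested. Of 2 measured bile duct genes Epcam was called lower in TgSREBP-1a with 1 of its 3 probe sets, 170480_at, which fell by 0.63 on the log2 scale (limma adjusted p = 0.00538). Its other probe sets differed by 0.05 and 0.01. Sox9, the other bile duct gene, was not called, and its probe sets differed in sign in TgSREBP-1a, with 0.24 for the brightest and -0.34 and -0.02 for the others. Of 1 hepatocyte, 3 endothelial, 1 stellate, 1 adipocyte and 5 skeletal muscle genes limma called 0 in any comparison. At an unadjusted p under 0.05 there were 4 of these 44 tests (9.09%), beside 6.82% of the tests of all probe sets.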

How the data were processed

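RNA from 5 pooled livers per group was hybridised to the C array of the Affymetrix Murine Genome set, version 2, and the authors deposited log2 values made with RMA, per the submitters' processing notes; the series' design text names MICROARRAY SUITE 5.0 instead, the log2 scale was read from the range of the values, and there are no detection calls. Of 11934 probe sets 66 controls were left out. Genes were named from the platform's annotation: 7717 tested probe sets had 1 symbol, 150 several and 4001 none, and 7677 matched RefSeq by Entrez ID. All 10 arrays and 5 groups were fitted together with limma 3.58.1 in R 4.3.3 (lmFit and eBayes, 5 residual degrees of freedom), in a script tested on simulated data. A listed gene is represented by its probe set with the highest mean. Named were every probe set of the 6 genes, the called genes of the lipid lists, the gene with the largest difference in each list, the 5 genes most correlated with each Fads2 or Fads3 probe set, and Nsdhl and Cpa1; probe sets that disagree, neighbours and other marker genes were named after their values were seen. The genes, lists and tests were chosen with earlier results of these data known. Alternatives were other scalings, filters and variances, a replicate block, the 18S signal as a covariate, and leaving out each array. Array number limits the precision.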

Additional observations from a re-analysis of the deposited data

How the results depend on the processing

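The signs of the Fads2 differences held in every comparison under every alternative run, and so did those of Fads3 167028_at except in TgSREBP-1a, where it ran from -0.12 to 0.23. Fads2 ran from 2.26 to 3.03 in TgSREBP-1a and from 0.79 to 1.56 in TgSREBP-2 over the fits that left out an array, and TgSREBP-1a minus TgSREBP-2 was 1.83 under quantile normalisation. Fads3 167028_at ran from 1.11 to 1.46 in TgSREBP-2 and from -1.37 to -1.10 between the transgenes. Replicate numbers were not taken to pair arrays, since the labels do not say what same-numbered arrays of different pools share. Deviations of same-numbered arrays correlated at 0.33 in the Scap pair and -0.17 between the transgenes. For the SREBP wild type they correlated at 0.24 with TgSREBP-1a and 0.22 with TgSREBP-2. With the replicate block Fads2 in Scap-/- was -1.19 with a limma adjusted p of 0.00239, so 1 of the 7 probe sets was called, and 1 listed gene, Cyb5b, was called in Scap-/- and between the transgenes. Called probe sets with the replicate block numbered 19 in Scap-/-, 186 in TgSREBP-1a, 37 in TgSREBP-2 and 96 between the transgenes, against 10, 123, 14 and 61 without it, and a crossed pairing of TgSREBP-2, chosen after seeing the data, gave 78 between the transgenes, with 0 listed genes. With the 18S covariate 1 of the 7 probe sets was called in Scap-/- (Fads2, -1.08, limma adjusted p = 0.0184), and 22 probe sets in TgSREBP-2. Using only plain _at probe sets gave 4, 67, 4 and 36 called, using only arrays of the same study gave 4 in Scap-/-, and a 2-fold floor gave 59 in TgSREBP-1a and 31 between the transgenes. Leaving out each array gave 3 to 11, 40 to 134, 7 to 17 and 23 to 65 called probe sets, with the lowest counts without Scap wild type replicate 1, TgSREBP-1a replicate 1, TgSREBP-2 replicate 1 and TgSREBP-1a replicate 1, and 0 to 2 listed genes in TgSREBP-1a. That list count was 1 under the brighter filter (Cyb5b), plain _at probe sets (Lpin3) and robust variance (Scd3, with Cyb5b lost at a limma adjusted p of 0.0540). The cause of these changes was not tested, apart from filters that test fewer probe sets. The brighter filter leaves out Fads3, Acly and Lpin1, and the plain _at filter leaves out Fads2, Acly and 1 Fads3 probe set, so they have no values there.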

Other observations

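The wild type pools of the experiments differ in diet, age and injections, which cannot be told apart, and their difference was not tested. Fads2 had means of 9.58 in the Scap wild type and 9.18 in the SREBP wild type, a difference of 0.39 with overlapping arrays. The sterol synthesis gene Nsdhl had 10.00 and 7.48 in the same pools, a difference of 2.52 without overlap. Cyb5b differed by 1.13 without overlap and Scd3 by 0.04 with overlap. Of all tested probe sets, 0.177% differed by at least 2-fold between these wild types. Lpin1 was 0.28 higher in the Scap wild type and Hsd17b12 differed by -0.11, both without overlap. Acly (-0.02), Dgat1 (0.03) and both Fads3 probe sets (0.13 and -0.07) overlapped. The share of all tested probe sets without overlap was not counted between these wild types. In the comparisons of Scap-/- and the transgenic pools this share ran from 29.7% to 39.4%, so lack of overlap alone was common.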
